A study of Mus musculus with 9 samples.

Results

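The 7 subunits of respiratory complex I that are encoded by the mitochondrial genome, mt-Nd1, mt-Nd2, mt-Nd3, mt-Nd4, mt-Nd4l, mt-Nd5 and mt-Nd6, were followed through RNAseq of the mediobasal hypothalamus (MBH), and all 7 were measured among 15340 genes that passed the filter on low counts. The members were taken by gene symbol, but they were chosen by their Emul and CTRL values in these same libraries, namely the adjusted p-values and the higher means in Emul. Their group differences are therefore given as a description and carry no test. Tissue came from wild-type C57Bl/6 males at P21, when pups are weaned, from 4 litters whose dams drank plain water (CTRL, n = 4) and 5 litters whose dams drank 1% carboxymethylcellulose and 1% polysorbate 80 (Emul, n = 5). All animals were on the same unmodified genetic background, and the pups stayed with their dams until weaning. Libraries were strand-specific and made from mRNA, and each carried between 28245360 and 46067534 estimated counts.

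Complex I, or NADH dehydrogenase, passes electrons from NADH to ubiquinone and pumps protons across the inner mitochondrial membrane. Its membrane arm is built around the mitochondrially encoded subunits, while the rest of the complex comes from nuclear Nduf genes, so its assembly draws on both genomes. Mitochondrial DNA is copied into long transcripts from both of its strands, which are cut at tRNAs into mature mRNAs, and neurons lean heavily on the resulting oxidative phosphorylation.

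Along the mitochondrial chromosome (chrM, mm10, positions from the GENCODE M21 annotation of that build), 6 of the 7 genes lie on the plus strand and are read from the transcript of the heavy strand. Each of the 7 has 1 annotated transcript with no intron. These 6 are mt-Nd1 (chrM:2751-3707), mt-Nd2 (chrM:3914-4951), mt-Nd3 (chrM:9459-9806), mt-Nd4l (chrM:9877-10173), mt-Nd4 (chrM:10167-11544) and mt-Nd5 (chrM:11742-13565). Only mt-Nd6 (chrM:13552-14070) lies on the minus strand and is read from the transcript of the light strand. The first 30 bases of each mRNA are shown 5′ to 3′ in gene order, with the start codon in capitals, because the members start with different codons and because mt-Nd6 differs from the rest in base composition.
mt-Nd1: GTGttctttattaatatcctaacactcctc
mt-Nd2: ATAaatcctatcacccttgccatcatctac
mt-Nd3: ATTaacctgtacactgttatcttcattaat
mt-Nd4l: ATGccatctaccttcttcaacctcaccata
mt-Nd4: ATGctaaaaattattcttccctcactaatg
mt-Nd5: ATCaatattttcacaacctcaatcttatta
mt-Nd6: ATGaataattatatttttgttttaagttca

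The 5 start codons are ATG (mt-Nd4l, mt-Nd4 and mt-Nd6), ATA, ATT, ATC and GTG. Guanine made up 28.1% of the mt-Nd6 mRNA and cytosine 5.97%, whereas in the other 6 guanine ranged from 8.00% (mt-Nd2) to 11.6% (mt-Nd1) and cytosine was at least 22.1% (mt-Nd3). The mRNAs were between 297 bases (mt-Nd4l) and 1824 bases (mt-Nd5) long. Gene mt-Nd4 ends in a lone T, which is the first base of a stop codon that polyadenylation completes.

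Neighbouring members overlap at 2 places, and these stretches are shown because their positions belong to both genes. Both overlaps are shorter than a read. The end of mt-Nd4l and the start of mt-Nd4 share 7 bases on the same strand (chrM:10167-10173), in capitals, and the pair is known to be carried on a single mRNA.
mt-Nd4l, last 30 bases: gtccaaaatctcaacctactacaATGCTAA
mt-Nd4, first 30 bases: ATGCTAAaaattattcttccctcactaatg

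The ends of mt-Nd5 and mt-Nd6 overlap by 14 bases on opposite strands (chrM:13552-13565), again in capitals.
mt-Nd5, last 30 bases: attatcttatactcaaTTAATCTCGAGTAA
mt-Nd6, last 30 bases: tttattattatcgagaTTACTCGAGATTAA

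The libraries mark strand, but whether the quantification used it is not given in the sources used here. If it did not, a read of 1 strand of these genes could not be told apart from a read of the other.

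A search for transcripts sharing at least 1 stretch of 31 bases with a member found 8 nuclear pseudogenes that copy parts of mitochondrial DNA, and the only copy with more than 9.86 estimated counts in any library is one of mt-Nd3. The pseudogene Gm28438 (chr1:24612775-24613119, minus strand, mm10) carries 345 bases of the 348 of mt-Nd3 with a single difference, T3C (mt-Nd3 base, position counted from 1 at its first base, then the base of Gm28438), and holds 312 of its 318 stretches of 31 bases. The first 30 bases of both are shown with the differing base in capitals.
mt-Nd3: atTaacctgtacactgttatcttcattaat
Gm28438: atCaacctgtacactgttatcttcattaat

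At the other end, Gm28438 stops 3 bases short of mt-Nd3, and those 3 bases are in capitals.
mt-Nd3, last 30 bases: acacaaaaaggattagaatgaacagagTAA
Gm28438, last 30 bases: tgaacacaaaaaggattagaatgaacagag

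Gm28439 is identical to the first 876 bases of mt-Nd4, and Gm10222 to the first 294 bases of mt-Nd4l, yet both were listed at 0 counts in all 9 libraries. The copies touching mt-Nd2 (Gm13339 and Gm48122), mt-Nd5 (Gm11407 and Gm4076) and mt-Nd6 (Gm11408) had at most 9.86 estimated counts in any library. Against mt-Nd1, no transcript shared such a stretch. Reads of the stretches that mt-Nd4 and mt-Nd4l share with their copies had thus been given to the mitochondrial genes, while those of mt-Nd3 had been divided.

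Levels per length were compared as TPM, which divides counts by the length that fragments of the library could have come from. The order of the members was mt-Nd1, mt-Nd4l, mt-Nd4, mt-Nd6, mt-Nd2, mt-Nd5 and mt-Nd3, and 7 of the 9 libraries showed exactly this order. In CTRL 4 mt-Nd4l stood above mt-Nd1, and in CTRL 4 and Emul 2 mt-Nd2 stood above mt-Nd6. Highest was mt-Nd1, which sits where the membrane arm meets the arm that carries electrons, at 10864, 10254, 9850 and 11291 TPM in CTRL 1 to 4 and 12446, 13610, 12848, 11987 and 12819 TPM in Emul 1 to 5. The lowest, mt-Nd3, a small membrane subunit, had 3666, 2784, 2169 and 2930 TPM in CTRL 1 to 4 and 3684, 4972, 3900, 4015 and 3768 TPM in Emul 1 to 5. Over the 9 libraries the medians were 11987 TPM for mt-Nd1, 11497 TPM for mt-Nd4l, 10490 TPM for mt-Nd4, 7696 TPM for mt-Nd6, 7474 TPM for mt-Nd2, 5067 TPM for mt-Nd5 and 3684 TPM for mt-Nd3.

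Neighbours in this order were compared within each library by a two-sided exact sign-flip permutation test on log2 TPM, with 1 difference per library (n = 9), adjusted over the 6 neighbouring pairs. The order came from the mean log2 TPM of these same libraries, so the pairs and their directions were taken from the values tested. The smallest p this design can give is 0.00391. The level of mt-Nd1 exceeded that of mt-Nd4l 1.03-fold (log2 difference 0.05 ± 0.0669, SD; higher in 8 of 9 libraries, exact test, adjusted p = 0.0234). The level of mt-Nd4l exceeded that of mt-Nd4, its partner on the same mRNA, 1.11-fold (log2 difference 0.16 ± 0.0358, SD; 9 of 9 libraries, exact test, adjusted p = 0.00586). In each library this ratio lay between 1.07 and 1.17, but per full length it was 0.526 to 0.648. Its direction thus depends on how length is handled, and the test applies to TPM alone. The step from mt-Nd4 to mt-Nd6 was 1.35-fold, that from mt-Nd2 to mt-Nd5 1.43-fold and that from mt-Nd5 to mt-Nd3 1.47-fold, each in 9 of 9 libraries (exact test, adjusted p = 0.00586 for each). The difference between mt-Nd6 and mt-Nd2 did not pass (1.04-fold; higher in 7 of 9 libraries, exact test, adjusted p = 0.117), and that between mt-Nd1 and mt-Nd4l passed although its mean was smaller than its SD between libraries.

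**Figure D1:**
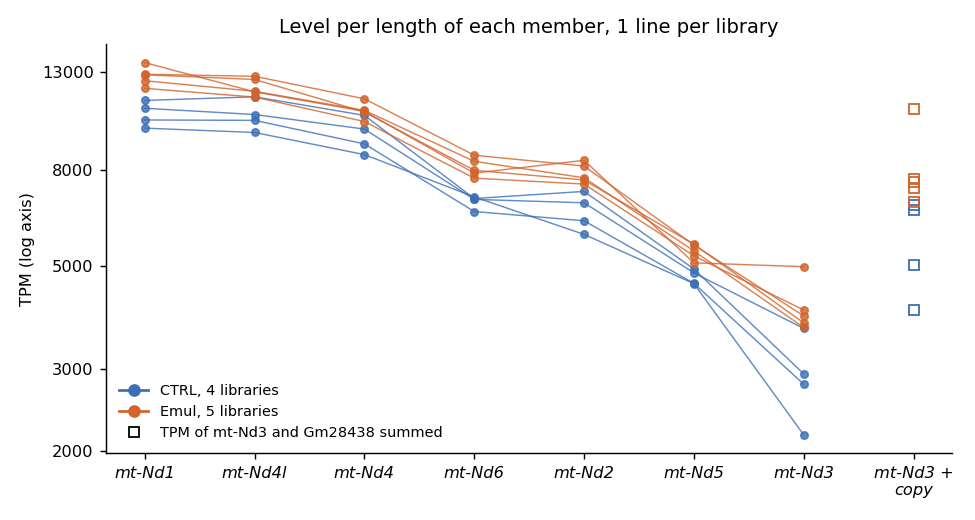
TPM of the 7 members on a log axis, ordered by level, with 1 line for each CTRL (blue) and Emul (orange) library, and as open squares the TPM of mt-Nd3 and its nuclear copy Gm28438 summed. Lines fall from mt-Nd1 (9850 to 13610 TPM) to mt-Nd3 (2169 to 4972 TPM), and the squares reach 4017 to 10849 TPM.

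Set against its opposite-strand neighbour, the light-strand mRNA mt-Nd6 was 1.42 to 1.56 times as high in TPM as mt-Nd5, with a mean ratio of 1.45 ± 0.0547 in CTRL (SD, n = 4) and 1.52 ± 0.0572 in Emul (SD, n = 5), and the ranges of the groups overlapped. Relative to the mean of the 6 heavy-strand members it stood at 0.925 ± 0.0750 in CTRL (SD, n = 4) and 0.922 ± 0.0389 in Emul (SD, n = 5). By its assigned counts, the single light-strand mRNA was thus neither the highest nor the lowest of the 7. Its ratio to the heavy-strand mean overlapped between the groups. Whether the quantification used strand is not given. If it did not, the counts of mt-Nd6 could include RNA of the opposite strand, and these ratios depend on that.

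Position in the order depended on length handling for mt-Nd4l and mt-Nd6. For mt-Nd4l, the length entering TPM ranged from 121 to 151 bases of 297 among the libraries, and for mt-Nd3 from 167 to 199 bases of 348. When counts were divided by full length, mt-Nd4l fell to between 0.526 and 0.648 of mt-Nd4, and the order became mt-Nd1, mt-Nd4, mt-Nd2, mt-Nd4l, mt-Nd6, mt-Nd5 and mt-Nd3. In that order mt-Nd4l stood below mt-Nd4 and mt-Nd2, mt-Nd6 stood below mt-Nd2, and mt-Nd3 stayed last. The place of mt-Nd3 depended instead on its nuclear copy. With the TPM of Gm28438 added, mt-Nd3 had a median of 6855 TPM and stood above mt-Nd5 in 8 of 9 libraries (1.33-fold, exact test, adjusted p = 0.0234), and did not differ from mt-Nd2 beyond the spread (mt-Nd2 1.07-fold higher, exact test, adjusted p = 0.254).

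Taken as log2 CPM (counts relative to library size scaled by TMM, not divided by length), all 7 members had a higher mean in Emul than in CTRL. Log2 differences ranged from 0.28 to 0.59 (median 0.34), beside a median of 0.0015 over the 15340 genes tested. In bulk tissue, more cells rich in these mRNAs and more of them per cell cannot be told apart. Emul libraries all lay above all CTRL libraries for 5 members, mt-Nd1, mt-Nd2, mt-Nd3, mt-Nd5 and mt-Nd6, and overlapped them for mt-Nd4 and mt-Nd4l. Over all genes, 2.80% were without overlap in that direction. Since this contrast chose the members, nothing is read from that count.

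The first pair on the chromosome showed like values. Levels of mt-Nd1 were 12.15, 12.03, 11.92 and 12.21 log2 CPM in CTRL 1 to 4 and 12.41, 12.61, 12.45, 12.32 and 12.45 log2 CPM in Emul 1 to 5. Every Emul library was above every CTRL library, with means of 12.07 ± 0.128 in CTRL (SD, n = 4) against 12.45 ± 0.104 in Emul (SD, n = 5), a log2 difference of 0.37 (SE 0.0616), or 1.29-fold. Levels of mt-Nd2, one of the antiporter-like subunits that move protons, were 11.61, 11.45, 11.31 and 11.70 log2 CPM in CTRL 1 to 4 and 11.86, 12.05, 11.93, 11.77 and 11.84 log2 CPM in Emul 1 to 5. The groups did not overlap, CTRL 4 and Emul 4 being nearest, and the means were 11.52 ± 0.174 in CTRL (SD, n = 4) against 11.89 ± 0.106 in Emul (SD, n = 5), a log2 difference of 0.37 (SE 0.0734), or 1.30-fold.

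The next gene, mt-Nd3, had the widest spread. It stood at 8.53, 8.13, 7.53 and 8.24 log2 CPM in CTRL 1 to 4 and 8.54, 9.05, 8.61, 8.70 and 8.63 log2 CPM in Emul 1 to 5. CTRL 3 was far below the other libraries and Emul 2 above them, and CTRL 1 and Emul 1 were nearly equal, at 8.53 and 8.54 log2 CPM. The means were 8.11 ± 0.421 in CTRL (SD, n = 4) against 8.71 ± 0.203 in Emul (SD, n = 5), a log2 difference of 0.59 (SE 0.16), or 1.51-fold.

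The joined pair mt-Nd4l and mt-Nd4 was where the groups overlapped. For mt-Nd4l, a small membrane subunit, levels were 9.64, 9.60, 9.22 and 9.80 log2 CPM in CTRL 1 to 4 and 9.77, 9.86, 9.87, 9.81 and 9.95 log2 CPM in Emul 1 to 5. CTRL 4 lay above Emul 1, and CTRL 3 lay well below all others. The means were 9.57 ± 0.249 in CTRL (SD, n = 4) against 9.85 ± 0.0678 in Emul (SD, n = 5), a log2 difference of 0.28 (SE 0.0885), or 1.22-fold. For mt-Nd4, a second antiporter-like subunit, levels were 12.61, 12.46, 12.36 and 12.71 log2 CPM in CTRL 1 to 4 and 12.82, 12.88, 12.89, 12.69 and 12.79 log2 CPM in Emul 1 to 5. Here CTRL 4 exceeded Emul 4 by a narrow margin, and the means were 12.53 ± 0.154 in CTRL (SD, n = 4) against 12.81 ± 0.08 in Emul (SD, n = 5), a log2 difference of 0.28 (SE 0.0627), or 1.21-fold.

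The genes that meet end to end on opposite strands had the smallest standard errors. If the quantification did not use strand, their values may not be separate measurements. Levels of mt-Nd5, the largest antiporter-like subunit, were 12.03, 11.92, 11.90 and 12.06 log2 CPM in CTRL 1 to 4 and 12.27, 12.25, 12.30, 12.18 and 12.30 log2 CPM in Emul 1 to 5. All Emul libraries were above all CTRL libraries, with means of 11.98 ± 0.0818 in CTRL (SD, n = 4) against 12.26 ± 0.0492 in Emul (SD, n = 5), a log2 difference of 0.28 (SE 0.0383), or 1.22-fold. Levels of mt-Nd6, the membrane subunit read from the light strand, were 10.36, 10.24, 10.22 and 10.38 log2 CPM in CTRL 1 to 4 and 10.67, 10.66, 10.70, 10.54 and 10.63 log2 CPM in Emul 1 to 5. The gap between the highest CTRL and the lowest Emul library, 0.17 on the log2 scale, was the widest of the 7 members, and the means were 10.30 ± 0.0767 in CTRL (SD, n = 4) against 10.64 ± 0.0606 in Emul (SD, n = 5), a log2 difference of 0.34 (SE 0.0401), or 1.26-fold.

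**Figure D2:**
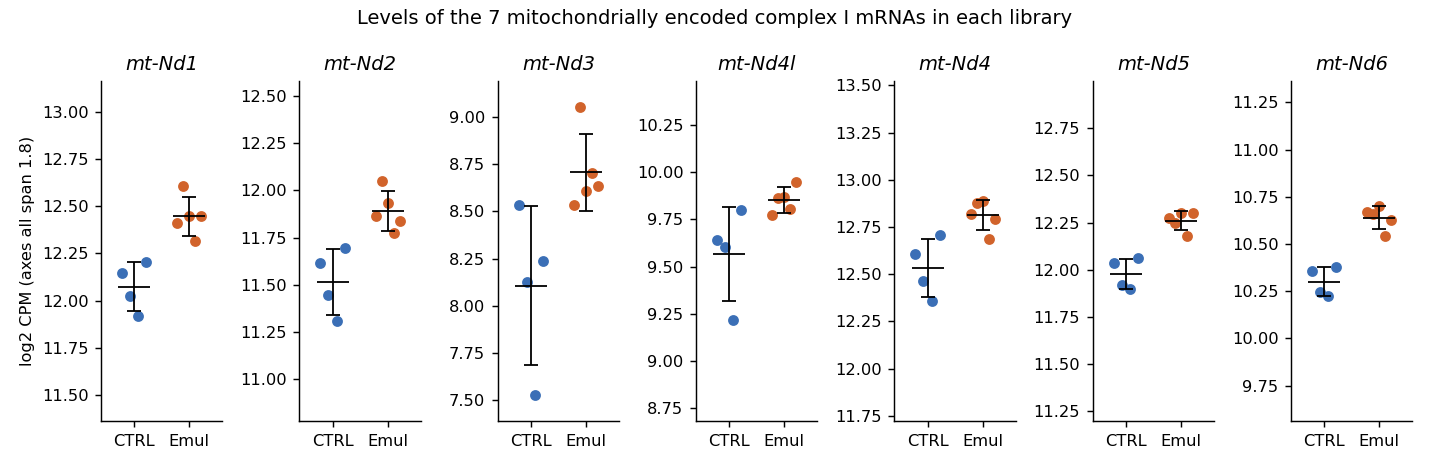
Log2 CPM of each member in every CTRL (blue, n = 4) and Emul (orange, n = 5) library, with the mean and SD in black, in genome order. All vertical axes span the same range, so that the 0.34 difference of mt-Nd6 can be set against the 0.59 difference and wider spread of mt-Nd3.

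The values that had drawn attention to this family were the adjusted p-values of limma-voom, which were below 0.05 for mt-Nd6 (0.0156), mt-Nd5 (0.0246) and mt-Nd1 (0.04997). Just outside was mt-Nd2 (0.0813), followed by mt-Nd4 (0.103), mt-Nd3 (0.146) and mt-Nd4l (0.181). These 3 of 7 members stood among 18 genes, or 0.117% of all tested. Being the basis of the choice, they are listed here and support nothing. The values of mt-Nd6 and mt-Nd5 may not be separate measurements if the quantification did not use strand. The log2 differences of mt-Nd3, mt-Nd2 and mt-Nd1 were larger than those of mt-Nd6 and mt-Nd5, and so were their standard errors. The number of members below 0.05 was 0 without CTRL 2 or Emul 3, and 1 without CTRL 3, CTRL 4, Emul 1 or Emul 5.

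The same libraries marked the extremes across the family. CTRL 3 was the lowest of all libraries for 7 of 7 members, and CTRL 4 was the highest CTRL library for 6 of 7. Among Emul libraries, Emul 4 was lowest for 5 members and Emul 1 for the other 2, and the highest was Emul 2 for 3 members, Emul 3 for 3 and Emul 5 for 1. The SD was larger in CTRL than in Emul for 7 of 7 members, from 0.0767 (mt-Nd6) to 0.421 (mt-Nd3) in CTRL and from 0.0492 (mt-Nd5) to 0.203 (mt-Nd3) in Emul. Without CTRL 3 this held for 6 of 7, as the CTRL SD of mt-Nd1 became 0.0910 against 0.104 in Emul, and the CTRL SD fell to 0.209 for mt-Nd3 and 0.105 for mt-Nd4l. CTRL 3 also had the fewest counts, 28245360, and the longest mean fragment, 185 bases against 152 to 170 bases in the other 8. Without CTRL 3 the log2 differences were 0.32 for mt-Nd1, 0.31 for mt-Nd2, 0.41 for mt-Nd3, 0.17 for mt-Nd4l, 0.22 for mt-Nd4, 0.26 for mt-Nd5 and 0.31 for mt-Nd6. The value of mt-Nd4l thus moved by more than 1.5 times, and the direction of all 7 was kept.

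Of all estimated counts, the 7 members took 2.07%, 1.90%, 1.79% and 2.17% in CTRL 1 to 4 and 2.40%, 2.55%, 2.49%, 2.26% and 2.40% in Emul 1 to 5. Counts per library ran from 5276 to 22054 for mt-Nd3 and from 149961 to 312194 for mt-Nd4, so counting error was small beside the spread between litters. In TPM the log2 differences were lower, from 0.18 (mt-Nd4) to 0.51 (mt-Nd3), while the median over all tested genes shifted by -0.09 on the log2(TPM + 1) scale. The same 5 members were without overlap in TPM. In the authors' own log2 CPM table, where differences ran from 0.28 to 0.61, mt-Nd4l was also without overlap (highest CTRL 9.83, lowest Emul 9.86), and mt-Nd4 alone overlapped.

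Shares of the members in their summed TPM were also set side by side. In CTRL, mt-Nd1 made up 20.5% ± 0.151 of the members' summed TPM (SD, n = 4), and in Emul 20.9% ± 0.561 (SD, n = 5). The share of mt-Nd4 was 18.4% ± 0.370 in CTRL (SD, n = 4) and 17.6% ± 0.347 in Emul (SD, n = 5). That of mt-Nd3 was 5.58% ± 0.964 in CTRL (SD, n = 4) and 6.67% ± 0.793 in Emul (SD, n = 5). With the TPM of Gm28438 added, the share of mt-Nd3 was 10.2% ± 1.70 in CTRL (SD, n = 4) and 12.4% ± 2.01 in Emul (SD, n = 5). The mean shares of the other members in CTRL and Emul were 20.3% and 19.8% for mt-Nd4l, 13.3% and 13.3% for mt-Nd6, 12.6% and 12.9% for mt-Nd2, and 9.18% and 8.79% for mt-Nd5. These shares were not tested, since they follow from the differences that chose the members.

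The split of reads between mt-Nd3 and Gm28438 was close to even. Estimated counts of mt-Nd3 were 14194, 11528, 5276 and 13057 in CTRL 1 to 4 and 14694, 22054, 14742, 18936 and 14406 in Emul 1 to 5. Those of Gm28438 were 11764, 9119, 4420 and 16063 in CTRL 1 to 4 and 15658, 25664, 12769, 13196 and 14186 in Emul 1 to 5. Of the sum, 44.8% to 55.8% went to mt-Nd3 in CTRL and 46.2% to 58.9% in Emul. As log2 CPM, Gm28438 differed by 0.64 (SE 0.243) and its groups overlapped.

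Summed, the pair stood at 9.40, 8.97, 8.41 and 9.39 log2 CPM in CTRL 1 to 4 and 9.58, 10.17, 9.51, 9.47 and 9.62 log2 CPM in Emul 1 to 5. These groups did not overlap, with means of 9.04 ± 0.470 in CTRL (SD, n = 4) and 9.67 ± 0.285 in Emul (SD, n = 5), a log2 difference of 0.62 (SE 0.191). The group difference of mt-Nd3 was thus close to that of the sum, while its level was about equal to that of the pseudogene and depended on the assignment. Reads of both cannot be told apart over most of their length.

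**Figure D3:**
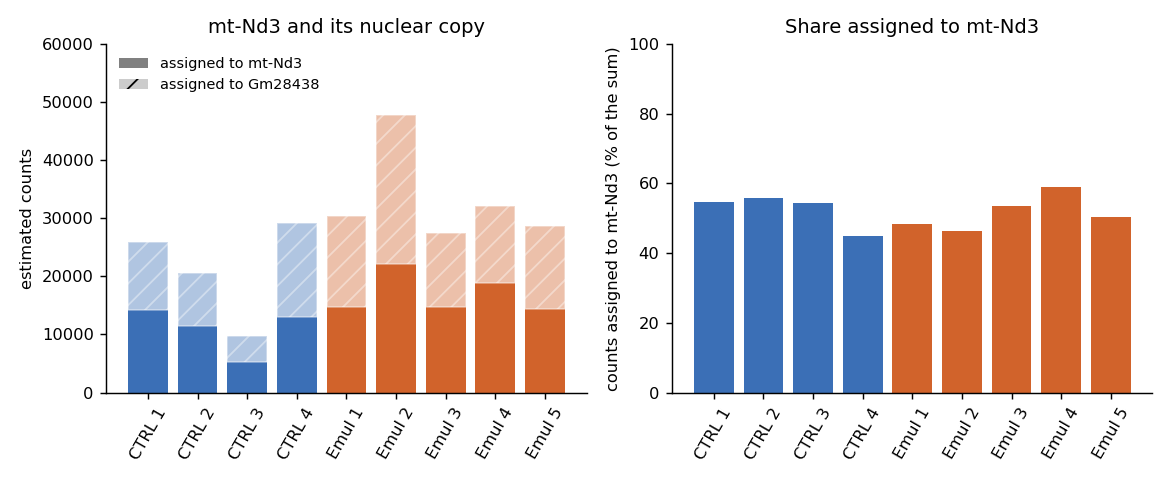
Left, estimated counts assigned to mt-Nd3 (solid) and to its nuclear copy Gm28438 (hatched) in each CTRL (blue) and Emul (orange) library. Right, the percent of the sum assigned to mt-Nd3, which lay between 44.8% and 58.9% in every library.

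Along the chromosome, the other 6 mitochondrial mRNAs, which serve complexes III, IV and V, spanned a wider range than the complex I members. Log2 differences were 0.83 (SE 0.149) for mt-Co2, 0.59 (SE 0.114) for mt-Atp6, 0.57 (SE 0.177) for mt-Atp8, 0.57 (SE 0.135) for mt-Co3, 0.21 (SE 0.0478) for mt-Cytb and 0.19 (SE 0.0403) for mt-Co1. Among these, mt-Co2, mt-Atp8, mt-Atp6 and mt-Co3 form a run that ends just before mt-Nd3, and mt-Nd3 (0.59) was nearer to that run than to the complex I members on either side. The difference between the run and the other genes was not tested. Without CTRL 3, mt-Nd3 was at 0.41, mt-Nd2 at 0.31 and mt-Nd4l at 0.17, and the run was not compared in that setting. The place of mt-Nd3 beside the run thus leans on CTRL 3, and its reads were divided with Gm28438. Adding near-identical nuclear copies to all 13 mitochondrial mRNAs left 15335 genes tested, against 15339 with copies added to the members alone. Some copies of the other 6 mRNAs thus also held reads. The log2 differences of those 6 are given without their copies, so they depend on how reads were assigned.

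**Figure D4:**
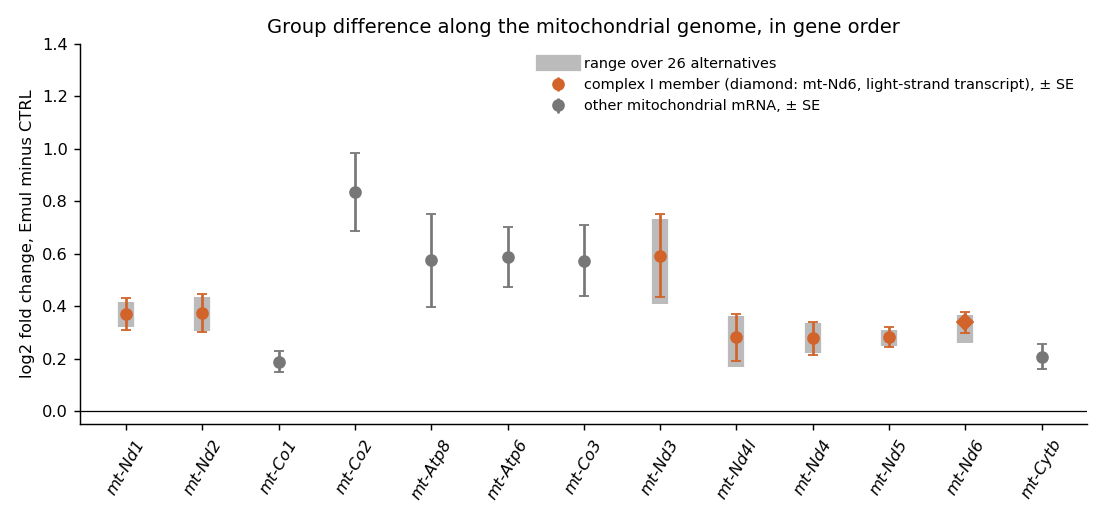
Log2 fold change (Emul minus CTRL, ± SE) of the 13 mitochondrial mRNAs in gene order, complex I members in orange, mt-Nd6 of the light strand as a diamond, others in grey. Grey bars give the range over 26 alternative settings for the members, from 0.17 to 0.36 for mt-Nd4l and from 0.25 to 0.31 for mt-Nd5.

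The nuclear side of complex I was measured through 37 Nduf genes, all of which passed the filter. Of these, 1 was higher in Emul at an unadjusted p under 0.05 and 0 were lower in limma-voom, beside 6.84% of all genes higher and 8.99% lower, and 0 had an adjusted p under 0.05 in limma-voom, edgeR or DESeq2. DESeq2 found 4 and edgeR 1 at an unadjusted p under 0.05. Their log2 differences ranged from -0.07 to 0.22 with a median of 0.05, and 30 of 37 were above 0, beside 50.8% of all genes. The gene that passed was Ndufv2, a subunit of the NADH-binding end, at 0.16 (SE 0.0526, adjusted p = 0.181) in limma-voom. Next were Ndufs4, an accessory subunit, at 0.12 (SE 0.0577, adjusted p = 0.322), and Ndufb9, of the membrane arm, at 0.11 (SE 0.054, adjusted p = 0.346), which did not pass. On the other side were Ndufs7, which carries the last iron-sulfur cluster, at -0.07 (SE 0.0481, adjusted p = 0.488), Ndufv1, which binds NADH, at -0.03 (SE 0.038, adjusted p = 0.778), and Ndufb2 at -0.03 (SE 0.0513, adjusted p = 0.83). The count of 1 rested on single libraries. It was 10 of 37 without Emul 3 and 2 without CTRL 1, CTRL 2, Emul 4 or Emul 5, all of them higher in Emul. Over all genes, in both directions, 14.9% had such a p without Emul 3, and 13.5%, 13.6%, 17.4% and 14.0% in the other 4 settings, in that order, so the counts of 2 lie below the share over all genes.

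Summed over genes, the nuclear subunits reached 2257, 2232, 2101 and 2218 CPM in CTRL 1 to 4 and 2292, 2539, 2137, 2254 and 2246 CPM in Emul 1 to 5, and the groups overlapped. The 7 members summed to 20593, 18753, 17442 and 21514 CPM in CTRL 1 to 4 and to 24222, 25949, 25121, 22661 and 24339 CPM in Emul 1 to 5. Their ratio, mitochondrial over nuclear, was 8.88 ± 0.658 in CTRL (SD, n = 4) and 10.7 ± 0.670 in Emul (SD, n = 5). All Emul ratios (10.1 to 11.8) were above all CTRL ratios (8.30 to 9.70), which follows from the members and was not tested.

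**Figure D5:**
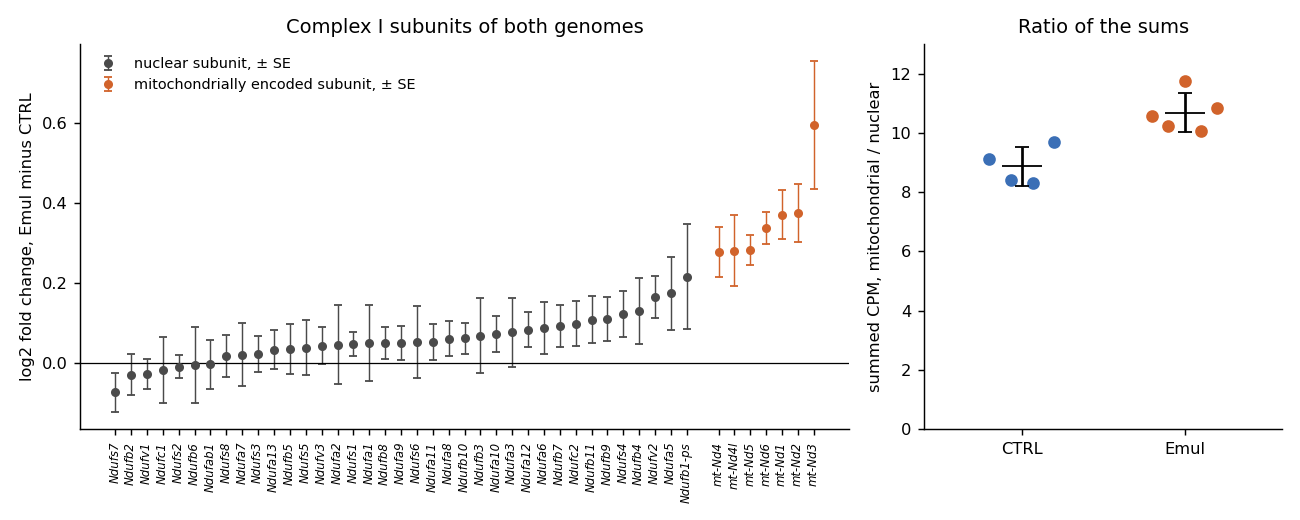
Left, log2 fold change (Emul minus CTRL, ± SE) of the 37 nuclear complex I subunits (grey) and the 7 mitochondrial ones (orange), each set sorted by value. Right, the ratio of their summed CPM per library with mean and SD, 8.30 to 9.70 in CTRL (n = 4) and 10.1 to 11.8 in Emul (n = 5).

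Factors that build complex I showed no change that passed the test. Of 20 assembly factors, 19 were tested (Coa1 was under the filter), 0 had an unadjusted p under 0.05 in limma-voom, edgeR or DESeq2 in either direction, and the median log2 difference was 0.02. The lowest p-values among those above 0 belonged to Ndufaf8 at 0.18 (SE 0.0873, adjusted p = 0.34), Lyrm2 at 0.13 (SE 0.0721, adjusted p = 0.423) and Ndufaf5 at 0.10 (SE 0.0639, adjusted p = 0.478) in limma-voom. Among those below 0 they belonged to Tmem186 at -0.08 (SE 0.0527, adjusted p = 0.484), Foxred1 at -0.05 (SE 0.0391, adjusted p = 0.604) and Timmdc1 at -0.06 (SE 0.0561, adjusted p = 0.626).

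Factors that make, process and degrade mitochondrial RNA numbered 26, all tested. In limma-voom 3 were higher and 1 was lower at an unadjusted p under 0.05, beside the same 6.84% and 8.99% of all genes, and the median log2 difference was 0.01. With edgeR these counts were 3 and 1 and with DESeq2 2 and 1, and 0 had an adjusted p under 0.05 in any of these tools. Those that passed upward were Mtpap, the mitochondrial poly(A) polymerase, at 0.12 (SE 0.0446, adjusted p = 0.242), Tefm, the mitochondrial transcription elongation factor, at 0.23 (SE 0.0895, adjusted p = 0.247), and Supv3l1, the helicase of mitochondrial RNA decay, at 0.11 (SE 0.0475, adjusted p = 0.299). The factor that passed downward was Fastkd5, needed for the maturation of mRNAs not flanked by tRNAs, at -0.35 (SE 0.108, adjusted p = 0.181) in limma-voom. Polrmt, the mitochondrial RNA polymerase, stood at -0.11 (SE 0.0492, adjusted p = 0.325), and Tbrg4, a stabiliser of mitochondrial mRNAs, at -0.07 (SE 0.0343, adjusted p = 0.333). Fastkd5 and Tbrg4 were lower in all Emul than in all CTRL libraries, beside 3.80% of all genes.

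Outside the mitochondrial mRNAs, the genes whose profile over the 9 libraries was closest to the members' mean were sought by the root-mean-square difference of centred log2 CPM. They were Gm10409 and Gm3020 (0.0774 each), Adarb2 (0.0879), Cox16 (0.0882) and Klhl1 (0.0893), beside a median of 0.233 over 15327 genes. The values of Gm10409 and Gm3020 were identical in every library, so that pair counts as 1 measurement. Among the members themselves, mt-Nd2 (0.0354) and mt-Nd1 (0.0398) were closest to the mean and mt-Nd3 (0.221) was farthest. This is a description of 9 shared libraries, with the group difference included.

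The tissue carried its defining markers, with Npy at 5.41 ± 0.0846 log2 CPM in CTRL (SD, n = 4) and Pomc at 4.36 ± 0.370 log2 CPM (SD, n = 4), although Kiss1 was under the filter. Of the 10 MBH markers tested, 0 had an unadjusted p under 0.05 in limma-voom or DESeq2 and 1 in edgeR, and their sum was 210 to 243 CPM in CTRL and 201 to 276 CPM in Emul. Other groups of genes are given beside the members' values, against 6.84% of all genes higher and 8.99% lower at an unadjusted p under 0.05 in limma-voom. In these lists 0 genes had an adjusted p under 0.05 in limma-voom or edgeR, and in DESeq2 the neuronal, astrocyte and thalamic lists had 1 each. Of 5 oligodendrocyte markers, 4 were lower in Emul at an unadjusted p under 0.05 in limma-voom, edgeR and DESeq2, and their summed level was 12263 to 15469 CPM in CTRL and 9587 to 13077 CPM in Emul. Of 5 astrocyte markers 1 was lower at such a p in each tool, in limma-voom Gfap, and their sum was 1353 to 1467 CPM in CTRL and 1213 to 1346 CPM in Emul, without overlap. Of 8 neuronal markers, 4 were higher and 1 lower in limma-voom, 3 and 0 in edgeR and 4 and 0 in DESeq2. Their sum was 3227 to 3391 CPM in CTRL and 3361 to 3488 CPM in Emul. In limma-voom the log2 differences were above 0 for 5 of the 8 and below 0 for 3. Those below were Slc32a1 (-0.27), Gad1 (-0.24) and Gad2 (-0.23), and Slc17a6 (0.29) was among those above. Of 4 thalamic markers, 1 was higher in limma-voom, 3 in edgeR and 2 in DESeq2 (216 to 269 CPM against 239 to 372 CPM). The thalamic marker Prkcd stood at 4.09, 4.46, 4.35 and 4.18 log2 CPM in CTRL 1 to 4 and 5.25, 4.97, 5.88, 4.35 and 3.98 log2 CPM in Emul 1 to 5, so that Emul 1 to 3 stood above the other 6 libraries. Of 7 immediate early genes, 4 were lower in limma-voom and edgeR and 3 in DESeq2, with 0 higher (170 to 235 CPM against 95.2 to 179 CPM), and of 4 endothelial markers 1 was lower in each tool. The 5 erythroid genes were at 225 to 654 CPM in CTRL and 393 to 815 CPM in Emul, with 0 passing. Markers of tanycytes (4), ependymal cells (4), oligodendrocyte precursors (3), microglia (5), choroid plexus (2 of 4 tested) and pituitary (3 of 5 tested) also had 0 at such a p in limma-voom, edgeR or DESeq2, and Ttr, Folr1, Gh and Prl were not among the genes tested. Of 6 RNAs kept in the nucleus, 1 could be tested, Snhg11, at -0.01 (SE 0.0335) in limma-voom. The part of these groups in the members' values was not tested.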

How the data were processed

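RNA of the MBH of 9 male mice at P21, 1 library per litter as the methods describe the litters, was quantified by the authors with kallisto 0.46.1 (after FastQC 0.11.9; edgeR 3.40.1 is also named in the submitters' processing notes) on mm10. The deposited estimated counts and the deposited TPM values are given per transcript for 119414 transcripts, and were made by the authors' kallisto run. The authors also deposited log2 CPM for 14592 named genes, which was used as an alternative scale. Whether kallisto used strand is not given in the sources used here. No batch or date is given. P-values measure the spread between these litters.

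Transcripts were matched to genes by identifier in GENCODE M21 (97.8% matched, and 1.20% to 1.27% of counts were left out), and estimated counts were summed per gene. The filter retained genes whose CPM exceeded 1 in 4 or more libraries. Emul and CTRL were compared with limma-voom (limma 3.58.1, TMM from edgeR 4.0.16, R 4.3.3) without covariates and with Benjamini-Hochberg adjustment. Log2 CPM of single libraries used a prior count of 2. Alternatives were edgeR, DESeq2 1.42.0 (estimated counts rounded for both), limma-trend, quality weights, other scalings and filters, lengthScaledTPM, the authors' table, nuclear copies added, GC and length trends removed, a replicate block and each library left out. Adding copies together with lengthScaledTPM, copies of all 13 mRNAs, and copies in the level order were chosen after seeing the data. Of the fits, only that of limma-voom was scored on simulated counts. Levels per length were compared by exact sign-flip tests (SciPy 1.17.1). No libraries were near-duplicates.

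The members and the gene lists (nuclear subunits, assembly factors, RNA factors, nuclear-retained RNAs, immediate early genes and 13 sets of tissue markers) were chosen with earlier results of these data known. Genes named are all members, the other 6 mitochondrial mRNAs, copies sharing a stretch of 31 bases, up to 3 genes with the smallest p in each direction of the nuclear subunit, assembly factor and RNA factor lists, and the 5 genes with the closest profile. The same rule covered the marker lists, which are given mostly by counts and sums. Gfap, Npy, Pomc, Snhg11, Prkcd, Slc17a6, Slc32a1, Gad1 and Gad2 fall within it.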

Additional observations from a re-analysis of the deposited data

Results flagged for a closer look

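Among 62 sets of 4 or 5 libraries examined for a single distant value, 4 held one. Chance marks about 1 set in 20, or 3.1 here, so 4 is near the number due to chance. All 4 involve mt-Nd3, and those in Emul 2 share its mt-Nd3 value, so they are not separate observations. In Emul 2, mt-Nd3 stood at 4972 TPM against 3684 to 4015 TPM in the other Emul libraries (gap over range 0.742). Summed with Gm28438, it stood at 10849 TPM against 6855 to 7672 TPM (0.796), and this sum was 1.01 times mt-Nd4 against 0.644 to 0.714 in the other Emul libraries (0.813). In CTRL 4, 44.8% of the counts of mt-Nd3 and Gm28438 went to mt-Nd3 against 54.4% to 55.8% in the other CTRL libraries (0.871). Without Emul 2, mt-Nd3 differed by 0.51 on the log2 scale in place of 0.59.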

How the results depend on the processing

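The log2 differences of the 7 members stayed above 0 in all 26 alternatives, and their median, 0.34, ranged from 0.28 to 0.36. The number of members with an adjusted p under 0.05 was 3. It became 5 with DESeq2, 1 with limma-trend and with the authors' log2 CPM table, and 0 with the GC trend removed. It was 2 with median-of-ratios size factors, no filter, the length trend removed, or lengthScaledTPM with or without copies added. When single libraries were left out it ranged from 0 to 3. For mt-Nd4l the difference was 0.17 with the length trend removed and 0.17 without CTRL 3, and for mt-Nd6 it was 0.26 with the length trend removed. The causes were not tested.

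Among the 37 nuclear subunits, the number with an unadjusted p under 0.05 was 1. It was 2 with quality weights, library size alone, the 13 mitochondrial mRNAs left out of scaling, CPM above 1 in all libraries, or lengthScaledTPM with or without copies added, 3 with the GC or length trend removed, 4 with DESeq2 and 6 of 36 with the authors' table. All were higher in Emul except 1 with library size alone and 1 with the length trend removed. Over all genes the share with such a p was 15.5% (GC trend), 16.7% (length trend), 15.2% (DESeq2) and 13.5% (authors' table). Leaving out single libraries gave 1 to 10. The level order kept 6 of 6 neighbouring directions in each group alone and without any single library, 5 with nuclear copies added and 4 per full length.

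Over all genes, the 18 with an adjusted p under 0.05 became 341 with DESeq2, 60 with library size alone, 36 with quality weights, 33 with edgeR, 11 with either trend removed, 10 with median-of-ratios size factors, 8 with limma-trend, 6 with lengthScaledTPM and 5 with no filter or the authors' table, and 0 (without CTRL 2) to 24 (without Emul 4) when single libraries were left out.

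Samples with the same replicate number did not deviate together (correlations of -0.16, -0.01, 0.02 and -0.06). Pairs with different numbers gave -0.16 to 0.18, so these few correlations cannot decide whether the numbers pair samples. With the replicate number as a block, 0 members and 1 gene in all had an adjusted p under 0.05, and the members' median was 0.34. In that setting 6 of 37 nuclear subunits had an unadjusted p under 0.05, beside 12.3% of all genes.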
